A study of Mus musculus with 2 samples.

Results

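Integrin and laminin genes encode the proteins that hold epithelial, vascular and immune cells to the matrix around them. Genes were taken by symbol: the numbered integrin α, integrin β and laminin chains, with *Itgae*, *Itgal*, *Itgam*, *Itgav* and *Itgax*. Any other integrin α gene named by a letter was not taken. Of 32285 listed genes, 36 matched, and 35 of these are described here (17 integrin α, 8 integrin β and 10 laminin genes). They were chosen by name and not by a limit on their values, though with earlier results of these data known. They were measured by droplet-based single-cell RNA sequencing (scRNAseq) of whole back skin and of the preputial gland (PG), a sebaceous gland-like organ of male rodents. Each tissue was pooled from 3 wild type male C57BL/6 mice aged 52 weeks and made into 1 library, so there were 2 libraries, no replicates and no treatment. An effect of the tissue and one of its library cannot be told apart here.

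Integrins are dimers of an α and a β chain that span the cell membrane, and most of them bind proteins of the extracellular matrix. Laminins are trimers of an α, a β and a γ chain and form the sheet of the basement membrane on which epithelial and endothelial cells sit. In the epidermis, the basal cells are held by hemidesmosomes, in which the integrin of *Itga6* and *Itgb4* binds a laminin that holds the *Lama3* and *Lamb3* chains, while integrins with the β chain of *Itgb1* pair with many α chains. The β chains of *Itgb2* and *Itgb7* are those of leukocytes.

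After filtering, 8899 skin cells with a median of 2386 UMIs (unique molecular identifiers, the counted molecules) and 4699 PG cells with a median of 2729 UMIs were kept, and no kept cell of one library shared its barcode with a kept cell of the other. The barcode lists of the libraries differ, with 6794880 barcodes for skin, 737280 for PG and 77142 in both, although a single kit is named for both. With so few barcodes in both lists, the lack of shared kept barcodes was nearly fixed by the lists. It says little about RNA carried over between the libraries. Cells were put into classes by marker genes that include no integrin, laminin or partner gene, and are called by the class name for short. Skin gave 3671 basal, 1099 suprabasal, 359 follicle/duct, 590 hair matrix, 998 fibroblast-like, 86 endothelial-like, 77 skeletal muscle-like, 61 T cell-like and 215 myeloid-like cells. The hair matrix class takes in inner root sheath-like cells, whose markers are part of its gate. PG gave 1883 basal, 413 follicle/duct, 618 sebocyte-like, 605 fibroblast-like, 60 endothelial-like and 225 myeloid-like cells. Classes under 50 cells were not compared, among them the 18 sebocyte-like cells of skin and the 5 suprabasal cells of PG. The classes are ranges of a marker score, and 1247 skin cells and 630 PG cells lay between classes or held markers of more than 1 and were left out. Of the 3 check genes of basal cells that played no part in the gate, *Ccnd2* was higher in basal cells than in the rest in both tissues (log2 ratio 0.81 in skin and 1.96 in PG), whereas *Sparc* was lower in both (-2.62 and -0.74) and *Ifitm3* stood at 0.07 and 0.57, so the basal name rests on its keratins and other gate markers. Among the check genes of the other compared classes, *Sostdc1* was lower in PG follicle/duct cells than in the rest (-1.60) and *Acsbg1* did not stand out in PG sebocyte-like cells (-0.02), while the remaining ones were higher in their class, by 0.28 or more.

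All 35 genes had UMIs in both libraries, and together they made up 876 of every 1000000 UMIs (876 CPM) in the kept skin cells and 704 in the kept PG cells. For 31 of them, at least 1 class of 50 or more cells held at least 10 UMIs and 10 CPM. The other 4 were *Itga7*, *Itga8*, *Itga10* and *Lama1*. Levels are given in CPM, the UMIs of a gene for every 1000000 UMIs of the class, with exact Poisson 95% intervals, and ratios between classes have exact binomial 95% intervals. Counting error is all that these intervals cover, with no part for mice or libraries, and no test between tissues or classes was possible with 1 library each. The kit named for both libraries counts UMIs from the 3′ end of transcripts, so levels are not divided by transcript length. The libraries were counted against different barcode lists, so the use of that kit for both is in doubt. Any difference in chemistry between them is part of every ratio between tissues. Where that kit was used, levels of different genes depend on how well each 3′ end was caught.

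**Figure D1:**
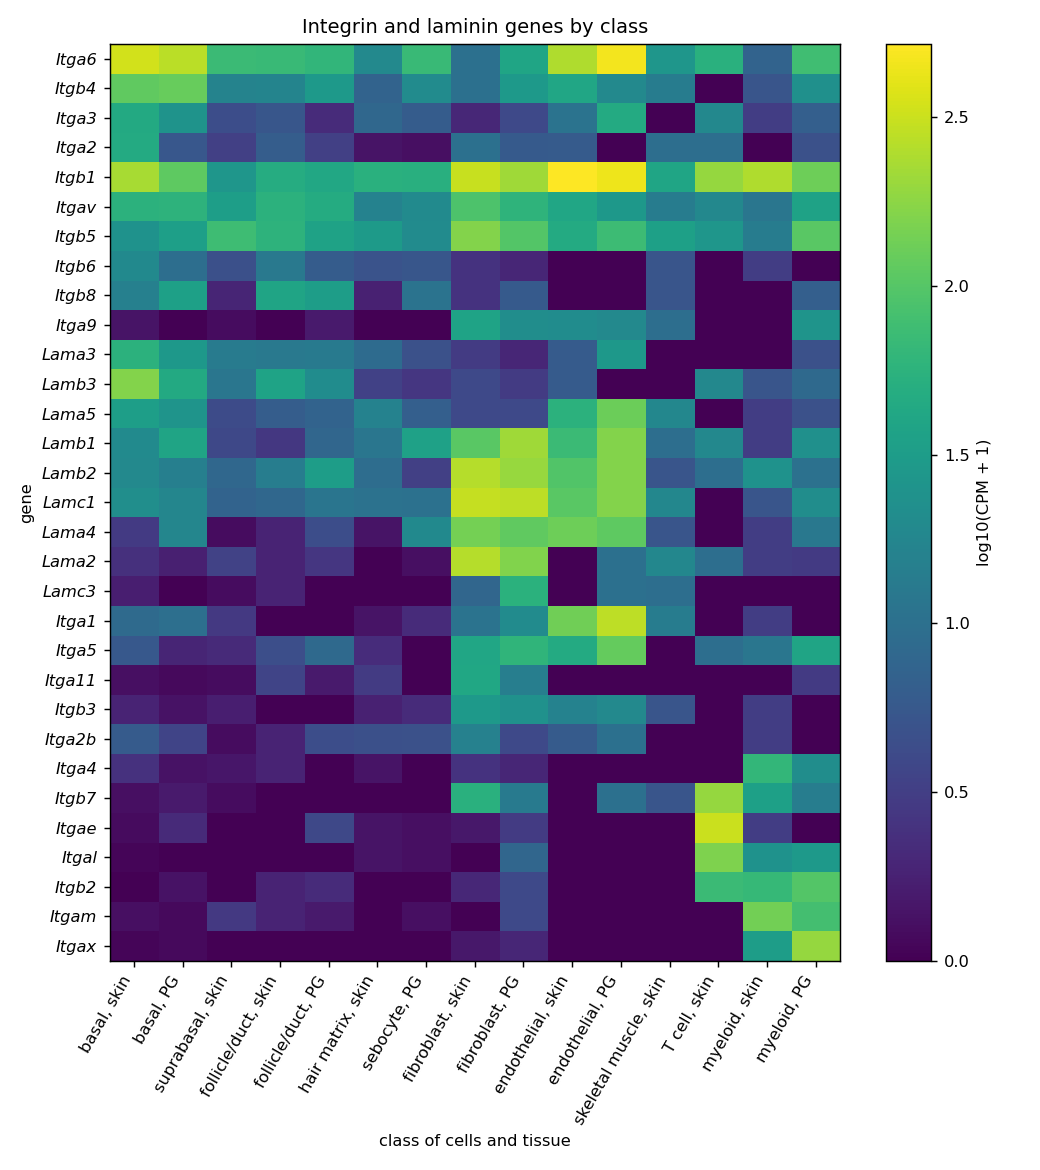
Levels of the 31 described genes (rows) in the 15 classes of at least 50 cells (columns, with the tissue); colour is log10 of CPM plus 1. *Itgb4* and *Lamb3* are brightest in the basal columns, *Lama2*, *Lamb2* and *Lamc1* in the fibroblast columns, *Itga1* in the endothelial columns, and *Itgae*, *Itgam* and *Itgax* in the immune columns.

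The start-site regions of 3 members are shown because they belong to the genes called different between basal cells of the 2 tissues. *Itga2* and *Lamb3* were lower in PG and *Itgb8* was higher, though *Itgb8* was under 2-fold as a mean over cells. Each region is 300 bases of RefSeq sequence on GRCm38.p6, from 250 bases before the listed start to 50 after it. It is written in the direction of the gene. Capitals mark matches, on either strand, to the AP-1 motif TGANTCA, the GC box GGGCGG and the E-box CANNTG. The *Itga2* region is chr13:114932051-114932350 on the minus strand, the *Lamb3* region, the first of 2 listed, is chr1:193301744-193302043 on the plus strand, and the *Itgb8* region is chr12:119238227-119238526 on the minus strand.
Itga2: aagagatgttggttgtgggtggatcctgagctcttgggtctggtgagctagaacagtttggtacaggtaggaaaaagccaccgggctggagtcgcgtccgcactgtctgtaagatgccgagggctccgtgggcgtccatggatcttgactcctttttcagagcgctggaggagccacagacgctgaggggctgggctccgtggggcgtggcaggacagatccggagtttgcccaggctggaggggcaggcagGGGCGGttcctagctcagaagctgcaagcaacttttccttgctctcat
Lamb3: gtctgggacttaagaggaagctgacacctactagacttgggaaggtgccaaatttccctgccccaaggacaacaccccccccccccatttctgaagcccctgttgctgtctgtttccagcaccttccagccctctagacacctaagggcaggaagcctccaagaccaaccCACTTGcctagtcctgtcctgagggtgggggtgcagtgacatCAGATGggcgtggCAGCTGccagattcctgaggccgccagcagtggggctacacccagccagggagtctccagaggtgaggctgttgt
Itgb8: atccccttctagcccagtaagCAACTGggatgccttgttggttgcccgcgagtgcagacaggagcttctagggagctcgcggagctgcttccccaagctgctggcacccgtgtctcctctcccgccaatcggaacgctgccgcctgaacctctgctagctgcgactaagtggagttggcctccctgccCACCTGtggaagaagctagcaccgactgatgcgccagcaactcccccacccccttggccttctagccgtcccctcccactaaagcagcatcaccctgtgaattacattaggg
The *Itga2* region held 1 GC box and no E-box, whereas *Lamb3* held 3 E-boxes and *Itgb8* held 2, and neither had a GC box. None of the 3 held the AP-1 motif. Of the 26 promoters listed for 23 of the 35 members, 3 held the AP-1 motif (11.5%, against 7.81% of all 32851 listed promoters), 12 the GC box (46.2% against 35.7%) and 22 the E-box (84.6% against 72.3%). On either strand, the TATA box TATAAA was in 0 of the 26, against 13.6% of all promoters, and the p63 motif in 1 (3.85% against 8.36%). The 3 with an AP-1 match were those of *Itga9* and *Itgax* and 1 of the 2 listed starts of *Itga3*. A match of these letters is a description of the sequence and not a bound site.

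Both chains of the hemidesmosome integrin were higher in basal keratinocytes than in the other epithelial classes of the same tissue. *Itga6* (ENSMUSG00000027111, chr2:71786886-71858427 on GRCm38) stood at 338 CPM (3453 UMIs) in skin basal cells and at 271 (1470 UMIs) in PG basal cells. It was lower in every other epithelial class of 50 or more cells, at 69.7 in skin suprabasal, 67.8 in skin follicle/duct, 18.2 in hair matrix, 60.7 in PG follicle/duct and 69.1 in PG sebocyte-like cells. *Itgb4* (ENSMUSG00000020758, chr11:115974725-116008412), its partner chain, was at 113 in skin basal and 122 in PG basal cells, and between 6.35 and 28.1 in the other epithelial classes. With every cell thinned to 1000 UMIs, 26.0% of skin basal cells held an *Itga6* UMI (24.6 to 27.5%) and 23.8% of PG basal cells (21.9 to 25.8%). Fibroblast-like cells, which do not build hemidesmosomes, gave 0.501% in skin and 1.65% in PG, at median depths of 1804 and 1382 UMIs against 2398 and 2694 in basal cells. Without thinning the basal shares were 48.6% and 49.97%.

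In skin basal cells there were 3.00 UMIs of *Itga6* for each UMI of *Itgb4*, a log2 ratio of 1.58 (1.49 to 1.68). In PG basal cells the log2 ratio was lower, at 1.15 (1.02 to 1.28). *Itga6* also pairs with *Itgb1*, and the balance of the β chains differed: the log2 ratio of *Itgb1* to *Itgb4* was 1.01 (0.91 to 1.12) in skin basal cells and -0.16 (-0.32 to 0.00) in PG basal cells. *Itgb1* thus made up 57.2% of the integrin β UMIs of skin basal cells and 35.4% of those of PG basal cells. *Itga6* made up 66.7% and 71.8% of the integrin α UMIs.

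The question of how the members differ between the layers of an epithelium was put to basal cells against each other epithelial class of the same library. Genes were compared where either class reached 10 CPM and both together held 20 UMIs, and a gene is called higher or lower from a 2-fold ratio on. A member can pass this limit only through the class where it is high, which favours a call, so the counts that follow are descriptions. Of the 15 members compared between basal and suprabasal cells of skin, 13 were higher in basal cells, where 17.2% of all 8255 genes compared were, and 1 was lower, where 10.2% of all genes were. The median log2 ratio was 2.69 over these members and 0.21 over all genes compared.

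Among the integrins, *Itga2*, the α chain of a collagen and laminin receptor, fell most from basal to suprabasal cells, from 45.2 to 2.24 CPM (log2 ratio 4.34, 3.44 to 5.41, basal over suprabasal). *Itga3*, which pairs with *Itgb1* to bind laminin, was at 44.2 and 3.36 (3.72, 2.98 to 4.57). *Itgb1* was at 227 and 25.5 (3.16, 2.88 to 3.44). *Itgb4* and *Itga6* had smaller ratios, of 2.89 (2.53 to 3.26) and 2.28 (2.11 to 2.45). The member that went the other way was *Itgb5*, a β chain that pairs with *Itgav* to bind vitronectin: it stood at 23.5 in basal and 74.6 in suprabasal cells, 3.17-fold higher in the latter (-1.67, -1.91 to -1.42). *Itgav* itself, at 55.1 and 32.7, differed by less than 2-fold (0.75, 0.49 to 1.03).

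The 6 laminin genes compared were lower in suprabasal cells, with log2 ratios of basal over suprabasal cells from 1.33 for *Lamb2* to 3.92 for *Lamb3*. *Lamb3* (ENSMUSG00000026639, chr1:193294353-193343878) stood at 163 CPM in basal and 10.8 in suprabasal cells, and *Lama3* at 54.5 and 12.5. These 2 chains summed to 218 CPM (209 to 227) in basal cells and 23.3 (19.0 to 28.2) in suprabasal cells. In barcodes with 10 to 100 UMIs, which hold free RNA, they summed to 43.3, above the suprabasal level. That is the level within free RNA alone, which was estimated at 3.63% of the UMIs of suprabasal cells. *Lama5*, the α chain of other epithelial and vascular laminins, was at 32.5 and 3.14 (3.37, 2.61 to 4.26).

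**Figure D2:**
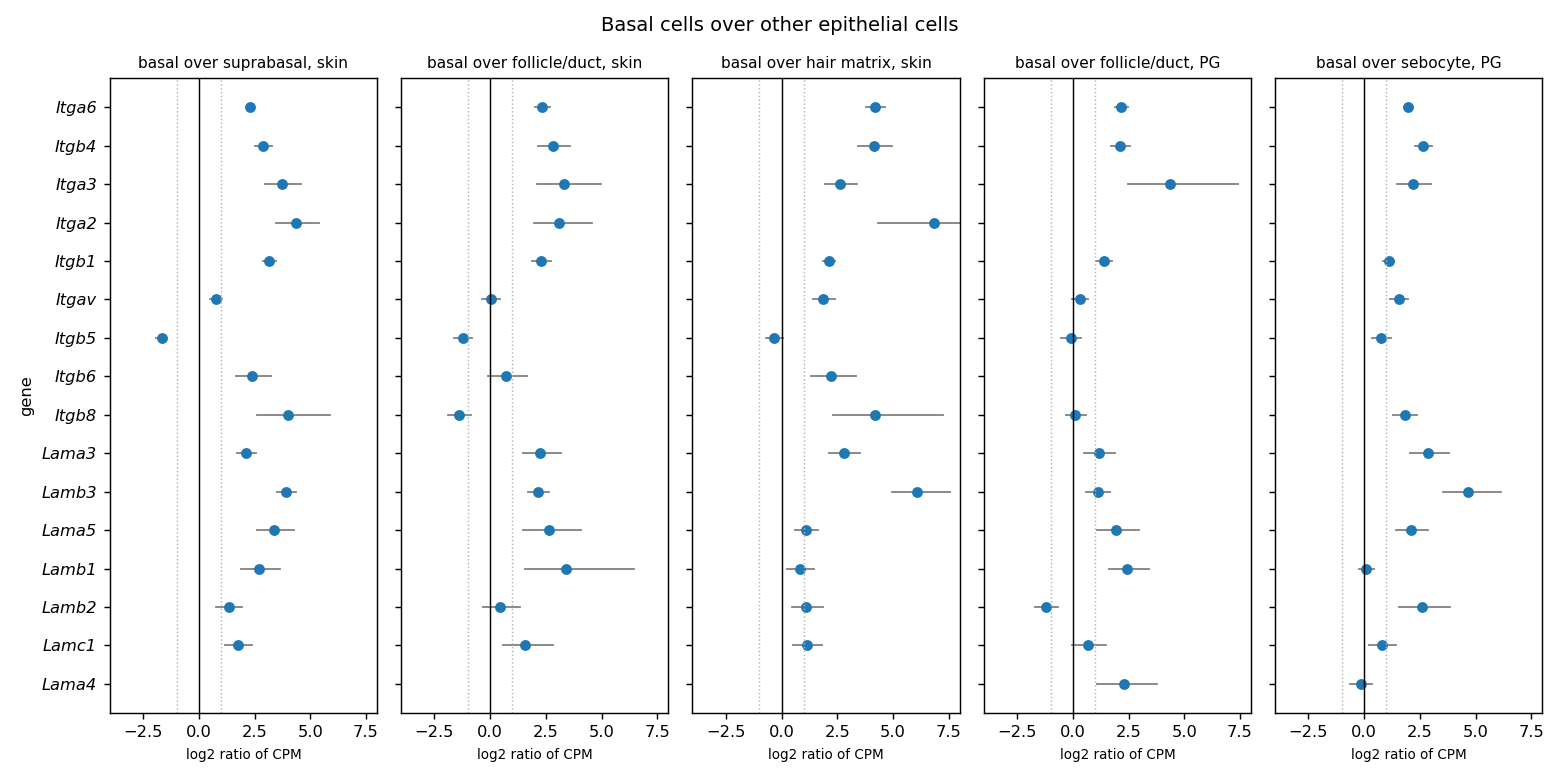
Log2 ratio of CPM, basal over another epithelial class of the same library (x axis, 1 panel per comparison), for each compared gene (rows), with exact binomial 95% intervals (lines; the upper end for *Itga2* over hair matrix, 12.14, is cut off) and dotted lines at 2-fold. Points lie to the right of 0 for most genes, with *Itgb5* and *Itgb8* to the left in skin follicle/duct cells and *Lamb2* to the left in PG follicle/duct cells.

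Skin cells were also ordered by the share of suprabasal markers among their basal and suprabasal marker UMIs, in 5 steps of 20% that hold 3356, 756, 288, 294 and 1149 cells. Cells of the other epithelial classes and cells between classes were not left out of these steps. *Itga6* was at 327, 207, 171, 130 and 54.6 CPM from the first step to the last, and *Lamb3* at 154.6, 103, 78.1, 40.7 and 4.57. *Itgb5* rose along the same steps, at 24.0, 31.0, 34.2, 44.5 and 75.4. The levels changed step by step in this order for these 3 genes, and the middle steps can hold doublets of a basal and a suprabasal cell. For comparison, *Col17a1*, the collagen of the hemidesmosome, was at 1365, 945.5, 799.6, 605 and 239.7.

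**Figure D3:**
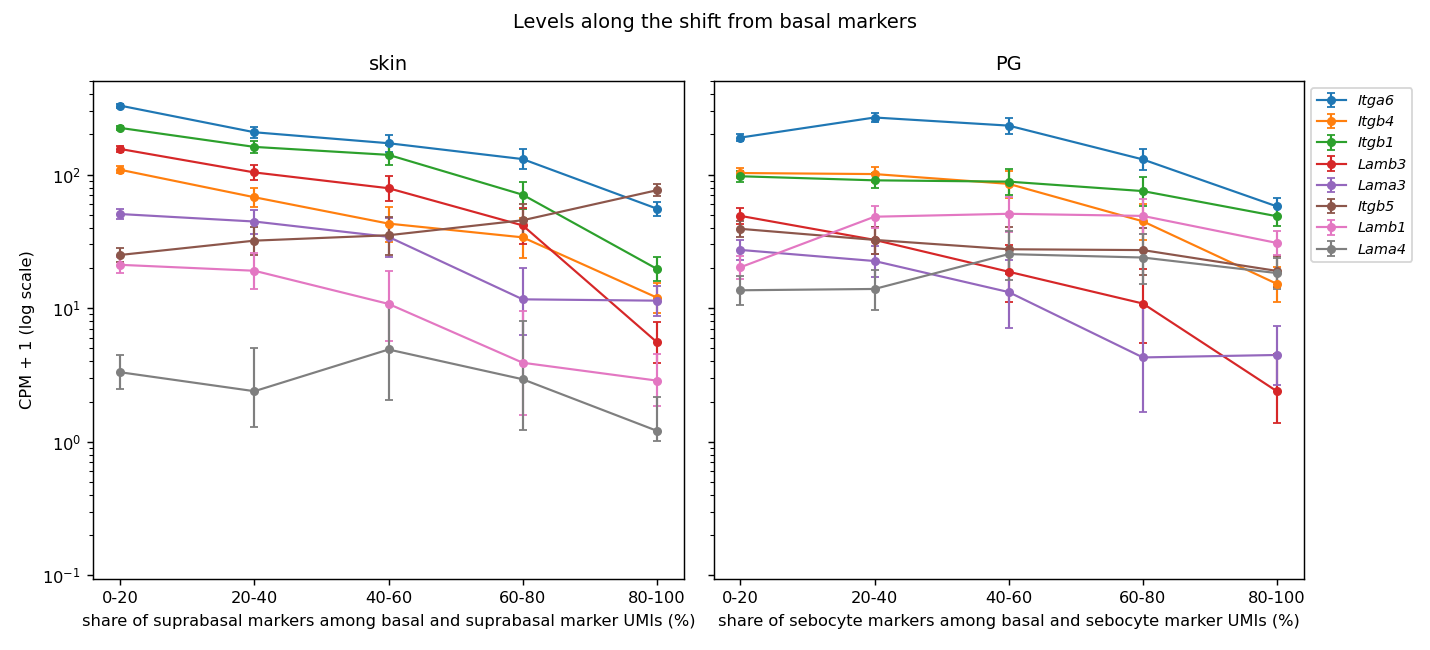
CPM plus 1 (y axis, log scale) of 8 genes in epithelial cells grouped by the share of suprabasal markers in skin (left) and of sebocyte markers in PG (right), in steps of 20%; bars are exact Poisson 95% intervals. In skin *Itgb5* rises while *Itga6*, *Itgb4*, *Itgb1*, *Lamb3* and *Lama3* fall, and in PG *Lamb1* and *Lama4* stay at or above their starting level while *Lamb3* falls.

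Follicle/duct cells of skin kept some members that suprabasal cells lost. Of the 15 members compared, 10 were higher in basal than in follicle/duct cells (13.2% of all genes) and 2 were lower (8.18% of all genes). The 2 lower were *Itgb8*, a partner of *Itgav*, at 14.4 in basal and 37.8 in follicle/duct cells (-1.39, -1.89 to -0.87), and *Itgb5*, at 23.5 and 55.4 (-1.24, -1.64 to -0.81). *Itgav* was at 55.1 and 54.6, with a log2 ratio of 0.02 (-0.37 to 0.42). *Lamb3* was at 37.0 in follicle/duct cells, and *Itga2* at 5.28.

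Cells of the hair matrix class held less *Lama3* and *Lamb3* than the basal, suprabasal and follicle/duct cells of skin, at a sum of 10.3 CPM (6.74 to 15.1). The markers of this class are those of the hair matrix and the inner root sheath together, and the levels were not split between them. Of 15 members, 13 were higher in basal than in hair matrix cells (16.9% of all genes) and 0 lower (13.8% of all genes). *Lamb3* had 6 UMIs in hair matrix cells, or 2.38 CPM, and *Itga2* had 1 UMI. *Itgb1* was the leading integrin there, at 52.0, and its log2 ratio to *Itgb4* was 3.03 (2.28 to 3.88), against 1.01 in basal cells. *Lama5*, at 15.1, differed less from basal cells than *Lama3* did, with log2 ratios of 1.11 (0.62 to 1.63) and 2.78 (2.14 to 3.50).

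In PG, 14 members were compared between basal and follicle/duct cells. Of these, 9 were higher in basal cells, where 24.0% of all genes were, and 1 was lower, where 9.23% were. *Itga3* was at 23.6 in basal cells and had 2 UMIs, or 1.14 CPM, in follicle/duct cells. The member lower in basal cells was *Lamb2*, a laminin β chain, at 13.8 in basal and 31.5 in follicle/duct cells (-1.19, -1.71 to -0.66). In skin the same gene was at 18.0 and 13.2. *Itgb8* was at 34.1 in PG basal and 31.5 in PG follicle/duct cells, a log2 ratio of 0.12 (-0.32 to 0.58). The ratios of *Lama3*, *Lamb3* and *Lama5*, between 1.12 and 1.95, came out under 2-fold after thinning to 1000 UMIs, at 0.66, 0.75 and 0.95.

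Sebocytes are the lipid-filled cells of the gland, and which cells they arise from in PG was not tested here. Of 14 members compared in PG, 10 were higher in basal than in sebocyte-like cells (16.5% of all genes) and 0 lower (7.59% of all genes), with a median log2 ratio of 1.89 over these members and 0.17 over all genes compared. *Lama3* and *Lamb3* summed to 70.5 CPM (63.6 to 77.9) in basal and 5.43 (3.27 to 8.47) in sebocyte-like cells. Within free RNA alone, an estimated 1.59% of the UMIs of sebocyte-like cells, they summed to 19.4. *Lamb3* fell from 43.6 to 1.71 (4.67, 3.52 to 6.13). *Itga6* fell less, to 69.1 (1.97, 1.78 to 2.18), and *Itgb1* from 110 to 51.4 (1.09, 0.85 to 1.34). These are shares of a larger total in sebocyte-like cells, whose median was 5446.5 UMIs against 2694 in basal cells. *Itgb1* had 180 UMIs in 618 sebocyte-like cells and 594 in 1883 basal cells. The *Itgb1* ratio came out under 2-fold with at most 5% mitochondrial UMIs (0.94), after thinning to 1000 UMIs (0.96) and in basal cells without smooth muscle genes (0.99). Thinning also took *Lamb2* from 2.60 to 0.92 and *Itgb8* from 1.81 to 0.999.

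A pair of laminin genes did not follow this fall. *Lamb1* was at 37.3 in PG basal and 34.8 in PG sebocyte-like cells (0.10, -0.23 to 0.43), and *Lama4* (ENSMUSG00000019846, chr10:38965515-39110188), an α chain best known from vessels and other mesenchymal tissue, at 16.6 and 18.3 (-0.14, -0.62 to 0.35). In sebocyte-like cells *Lamb1* made up 89.7% of the laminin β UMIs and *Lama4* 62.7% of the α UMIs. Free RNA of the PG library held *Lamb1* at 35.7 and *Lama4* at 15.0, close to the levels of the sebocyte-like cells. It was estimated to make up 1.59% of the UMIs of these cells, from markers that the gate limits, so this share can be too low. Along the share of sebocyte markers, *Lamb1* was at 19.2, 47.4, 49.9, 48.1 and 29.8 CPM in steps of 1478, 731, 265, 196 and 484 cells, so the cells with the fewest sebocyte markers held less of it than those of the next 3 steps. *Lama4* was at 12.6, 12.9, 24.4, 22.9 and 17.3. *Lamb3* fell over the same steps, at 48.1, 31.5, 17.7, 9.84 and 1.39. *Itga6* was also higher in the second step than in the first before it fell, at 188, 267, 232, 129 and 56.8. Follicle/duct cells and cells between classes were not left out of these steps. The first step held 104 *Lamb2* UMIs, against 75 in all basal cells of PG. Follicle/duct cells of PG held less *Lamb1* and *Itga6* than basal cells (log2 ratios, follicle/duct over basal, of -2.44 and -2.16). Their part in the rise from the first step to the second was not tested.

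**Figure D4:**
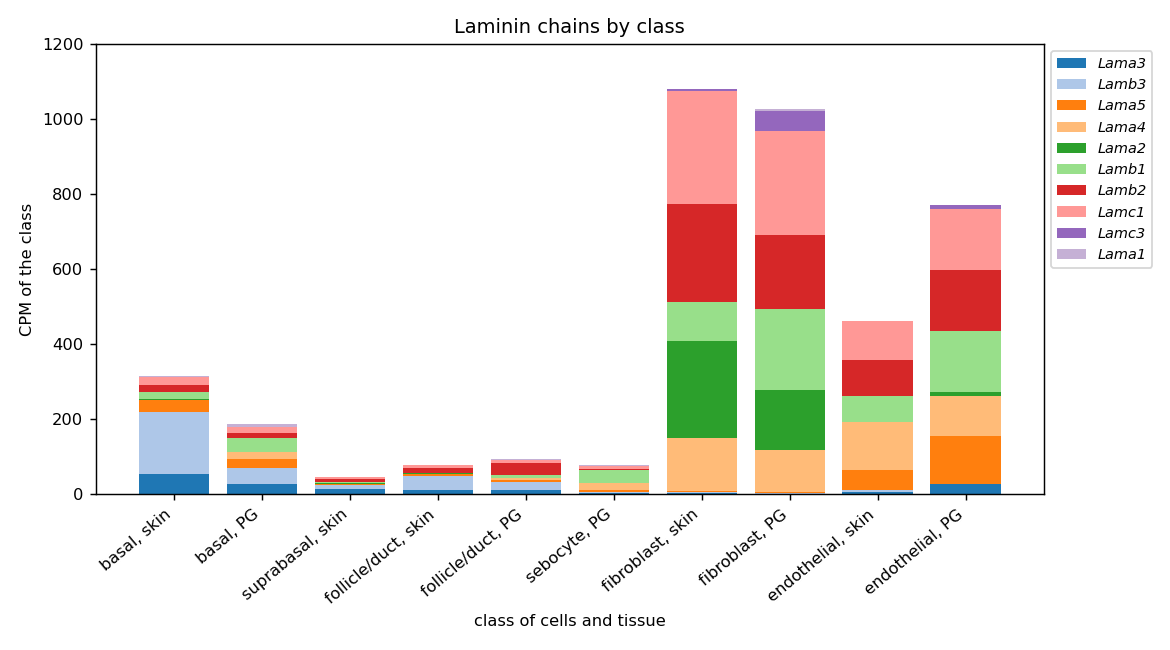
CPM of 10 laminin chains, stacked, in 10 classes of cells; bar heights are the summed levels. The *Lama3* and *Lamb3* chains fill most of the skin basal bar, *Lamb1* and *Lama4* most of the PG sebocyte bar, and both fibroblast bars, at 1081 in skin and 1027 in PG, hold mainly *Lamc1*, *Lamb2*, *Lama2*, *Lamb1* and *Lama4*.

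Basal cells of PG and skin were compared to see whether the glandular basal layer carries the same set. Of 16 members compared, 2 were at least 2-fold higher in PG (16.3% of all genes) and 5 lower (15.2% of all genes), with a median log2 ratio, PG over skin, of -0.36 over these members and 0.07 over all genes compared. *Itga2* was at 45.2 in skin and 4.43 in PG, 10.2-fold lower (-3.35, -4.01 to -2.76). *Lamb3* was at 163 and 43.6 (-1.91, -2.11 to -1.71), and *Lama3* at 54.5 and 26.9 (-1.02, -1.29 to -0.75). *Itgb1* was 2.08-fold lower in PG (-1.05, -1.19 to -0.92), and *Itgb6*, a partner of *Itgav*, 2.20-fold lower, at 8.49 against 18.7. As a mean over cells in place of summed UMIs, *Itgb1*, *Lama3* and *Itgb8* came out under 2-fold, at -0.93, -0.87 and 0.88. After thinning to 1000 UMIs, *Lama3* was at -0.74 and *Itgb8* at 0.80. With 1 gate marker fewer, *Lama3* was at -0.99. With a total that leaves out mitochondrial, ribosomal protein and gate marker genes, *Itgb1* was at -0.96 and *Lama3* at -0.93.

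The α6 and β4 chains of the hemidesmosome did not differ by 2-fold. *Itga6* had a log2 ratio, PG over skin, of -0.32 (-0.41 to -0.23) and *Itgb4* of 0.12 (-0.02 to 0.26). *Itgav*, at 56.7 in PG and 55.1 in skin, had a log2 ratio of 0.04 (-0.17 to 0.24), and its partner *Itgb8* was higher in PG, at 34.1 against 14.4 (1.25, 0.93 to 1.57). *Lama4* was at 16.6 in PG and 1.86 in skin, 8.93-fold higher (3.16, 2.43 to 3.96). *Lamb1* was at 37.3 and 18.8, just under the 2-fold limit (0.99, 0.70 to 1.28). The laminin β UMIs of basal cells were 81.6% *Lamb3* in skin, and 46.0% *Lamb3* with 39.4% *Lamb1* in PG.

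Smooth muscle genes were higher in PG than in skin basal cells: 16.1% of PG basal cells, and 2.70% of skin basal cells, held a UMI of *Acta2*, *Tagln*, *Myh11* or *Cnn1*. *Tagln* was at 163 CPM against 21.0, *Acta2* at 57.4 against 13.8 and *Cnn1* at 0.554 against 0.686. *Myh11*, a smooth muscle myosin, had no UMI in either class. All of these are gate markers of the contractile class, of which an epithelial cell may hold at most 2. The gate thus limited their levels in basal cells, and what the cells that held them are was not tested. The cells that held any of these genes were then left out, a choice made after the values were seen. Of the members, 5 were again lower in PG and 3 higher, with *Lamb1* now among the higher. The log2 ratios were -3.81 for *Itga2*, -2.10 for *Lamb3* and 3.19 for *Lama4*. The share of all genes called was not computed for this set of cells, so these counts are descriptions.

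**Figure D5:**
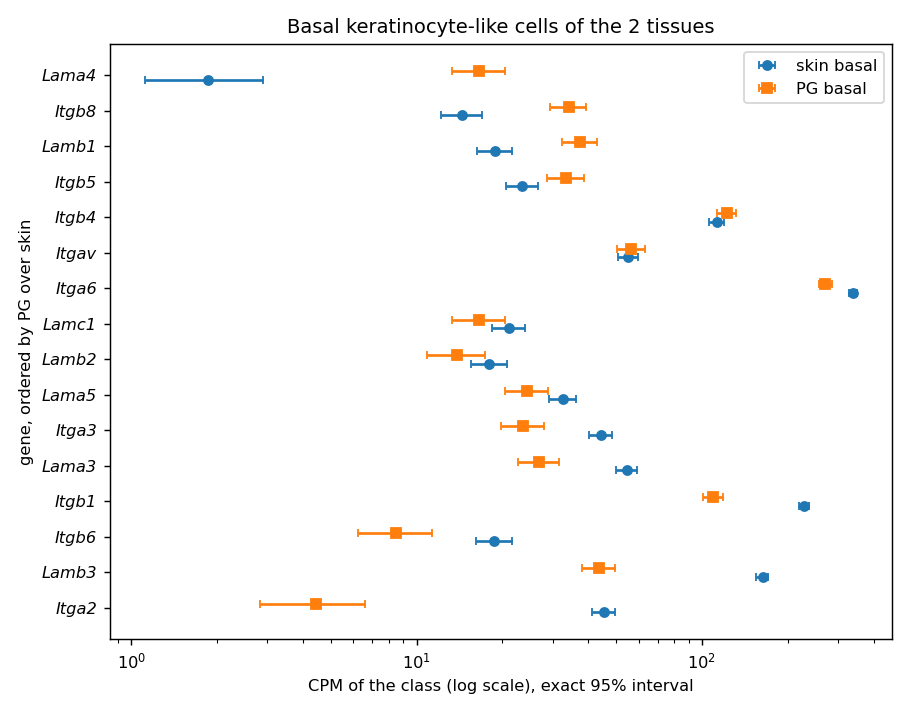
CPM (x axis, log scale) of the 16 compared genes in basal cells of skin (circles) and PG (squares), with exact Poisson 95% intervals; genes are ordered by the ratio of PG to skin. The intervals lie far apart for *Itga2*, *Lamb3* and *Lama4* and overlap for *Itgb4*, *Itgav*, *Lamc1* and *Lamb2*.

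Follicle/duct cells of the tissues were compared in the same way. Of 11 members, 1 was higher in PG (14.8% of all genes) and 1 lower (20.3% of all genes), with medians of -0.16 over these members and -0.18 over all genes. The higher was *Lamb2* (1.25, 0.41 to 2.18). The lower was *Itgb6*, whose interval included 0 (-1.15, -2.56 to 0.19). As a mean over cells both were under 2-fold, at 0.91 for *Lamb2* and -0.08 for *Itgb6*. Smooth muscle genes differed here too: 18.2% of PG and 1.39% of skin follicle/duct cells held a UMI of the 4 genes named above, with *Tagln* at 65.3 and 1.76 CPM, and their part in the ratios was not tested.

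Of the 20 listed partner genes of the hemidesmosome and basement membrane, 16 could be compared between basal and suprabasal cells of skin, and 15 were higher in basal cells (17.2% of all genes) and 0 lower (10.2%). Against follicle/duct cells of skin 11 of 16 were higher (13.2% of all genes) and 0 lower (8.18%), and against hair matrix cells 15 of 16 (16.9%) and 0 (13.8%). In PG, 10 of 15 were higher in basal than follicle/duct cells (24.0% of all genes) and 1 lower (9.23%), and 12 of 14 were higher in basal than sebocyte-like cells (16.5%) and 0 lower (7.59%). *Col17a1* was at 1457 CPM in skin basal cells and 354 in suprabasal cells (2.04, 1.97 to 2.12). *Dst*, a plakin that ties keratins to the hemidesmosome, was at 765 and 228 (1.75, 1.65 to 1.84), and *Plec*, another plakin, at 367 and 166 (1.15, 1.03 to 1.26). The tetraspanin *Cd151*, which binds laminin-binding integrins, was at 52.8 and 22.6 (1.22, 0.91 to 1.54).

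Between the tissues, 2 of 17 of these partners were higher in PG basal cells (16.3% of all genes) and 6 lower (15.2% of all genes). *Col17a1* was at 187 in PG against 1457 in skin (-2.96, -3.05 to -2.87), *Dst* at 368 against 765 (-1.05, -1.13 to -0.98), *Plec* at 228 against 367 (-0.69, -0.78 to -0.60) and *Cd151* at 77.1 against 52.8 (0.55, 0.36 to 0.73). *Col17a1* and *Dst* thus differed by more than 2-fold between the tissues, and *Itga6* and *Itgb4* did not. *Nid1*, which links laminins to collagen networks, had the largest ratio, at 37.6 in PG and 0.979 in skin (5.26, 4.36 to 6.35), followed by the talin gene *Tln2*, at 129 and 16.9 (2.93, 2.69 to 3.18). *Fn1* and *Tnc*, matrix ligands of integrins, had the smallest, at -4.80 (-7.86 to -2.91) and -4.27 (-5.50 to -3.27). Of the 10 integrin activators and adaptors compared, 4 were higher and 0 lower in PG basal cells, and of the 7 ligands outside the laminins, 0 were higher and 4 lower, beside the same shares of all genes (16.3% and 15.2%).

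Within the epithelia the partner lists gave these ends. From suprabasal to basal cells of skin the largest ratios were those of *Tnc* (5.41) and *Npnt*, a ligand found in basement membranes (4.64), and the smallest those of the kindlin gene *Fermt3* (-2.69) and *Cdh1* (-0.38), which encodes E-cadherin, the ligand of the integrin of *Itgae*. Of the activators and adaptors, 8 of 11 were higher in skin basal than suprabasal cells (17.2% of all genes) and 1 lower (10.2%), and of the ligands 6 of 7 and 0. Against follicle/duct cells of skin, 5 of 10 activators and adaptors and 4 of 7 ligands were higher (13.2% of all genes) and 0 lower (8.18%). Against hair matrix cells, 2 of 11 activators and adaptors were higher (16.9%) and 2 lower (13.8%), and 6 of 7 ligands were higher and 0 lower. In PG, 6 of 10 activators and adaptors and 4 of 5 ligands were higher in basal than follicle/duct cells (24.0% of all genes) and 0 lower (9.23%). In PG basal over sebocyte-like cells, 4 of 10 activators and adaptors and 4 of 5 ligands were higher (16.5%) and 0 lower (7.59%). The largest ratios of basal over sebocyte-like cells were those of *Icam1* (5.76) and *Postn* (5.43), and the smallest those of *Ilk* (0.07) and *Cd151* (0.18).

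Fibroblast-like cells carried the most laminin, at 1081 CPM in skin and 1027 in PG for the 10 chains. *Lamc1*, the common γ chain, was at 300.5 and 279, *Lamb2* at 261 and 197, *Lama2*, the α chain of muscle and nerve laminins, at 261 and 160, and *Lama4* at 141 and 112. Of 18 members compared between the tissues, 4 were higher in PG (10.9% of all genes) and 3 lower (9.34% of all genes). *Lamc3* was at 52.8 in PG and 6.98 in skin (2.92, 2.05 to 3.88) and *Lamb1* at 214 and 103 (1.05, 0.77 to 1.33), and *Lamb1* fell under 2-fold with a stricter limit of 1000 genes and 2000 UMIs per cell (0.43). The other 2 were *Itga6*, at 38.1 and 8.97, and *Itgb4*, at 28.4 and 8.97. Free RNA held them at 65.3 and 21.2 in PG and 56.3 and 13.2 in skin, and was estimated at 17.2% of the UMIs of PG fibroblast-like cells and 16.3% of those of skin. The gate limits the markers behind these shares, so the shares can be too low. With free RNA subtracted at these shares, the level of *Itga6* in skin came to 0 and was set to 3 counts. Its log2 ratio of 4.44, PG over skin, is thus a bound set by that floor and not a measured value. *Itgb4* was still higher in PG, at a log2 ratio of 1.87.

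The members lower in PG fibroblast-like cells were *Itga11*, a collagen receptor chain, at 13.7 against 40.4 (-1.56, -2.49 to -0.73), *Itgb7*, at 11.7 against 51.8 (-2.14, -3.14 to -1.28), and *Itga2b*, at 2.93, or 3 UMIs, against 14.5. *Itgb7* is known from leukocytes, and its α partner *Itgae* had 1 UMI in the same skin cells. On the same strand *Itgb7* lies just downstream of *Rarg*, and UMIs at its 3′ end cannot be assigned to a transcript here.

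Endothelial-like cells had the highest summed integrin levels of the classes compared between tissues, at 1136 CPM (994 to 1293) in skin and 1548 (1325 to 1798) in PG. *Itgb1* was at 521 and 444, *Itga6* at 248 and 462, and *Itga1*, a collagen and laminin receptor chain whose locus also holds the gene *Pelo*, at 134 and 281. Of 9 members compared, 4 were higher in PG (12.6% of all genes) and 0 lower (12.8% of all genes). They were *Itga1* (1.07, 0.28 to 1.87), *Lamb1* (1.23, 0.14 to 2.35), *Itga5*, the fibronectin receptor chain (1.40, 0.06 to 2.80), and *Lama5* (1.22, -0.03 to 2.50). These ratios rest on 86 and 60 cells and on 9 to 31 UMIs per gene and class. With the stricter limit of 1000 genes and 2000 UMIs, 35 and 16 cells remained, and *Lamb1* and *Itga5* had ratios below 0. There 1 member was called higher, and the share of all genes called was not computed.

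In contractile cells, of which there were 22 in skin and 31 in PG and which were not compared, *Itgb1* stood at 1058 and 458, *Itga8* at 475 and 172, *Itga1* at 281 and 267, and *Itga7* at 108 and 172. *Itga7* and *Itga8* reached no class of 50 or more cells at the level for description, and PG basal cells held *Itga8* at 5.35 and skin basal cells at 0.196. *Lama1* was highest in PG basal cells, at 7.20 against 2.06 in skin basal cells. *Itga10*, a chain of a cartilage collagen receptor, was at 2.99 or less in every class of 50 or more cells.

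Immune cells carried the leukocyte integrins. T cell-like cells of skin (61 cells) held *Itgae*, whose product binds E-cadherin, at 312 CPM, *Itgb7*, its β chain, at 191, *Itgal* at 156 and *Itgb2* at 69.4. After thinning, 23.0% of these cells held an *Itgae* UMI (13.2 to 35.5%). At full depth 34.4% of the T cell-like cells held one, against 0.0545% of the 3671 skin basal cells, which had 2 *Itgae* UMIs in all. The 16 T cell-like cells of PG had *Itgal* and *Itgb7* at 106 each and *Itgae* at 26.4, or 1 UMI, and were not compared.

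Myeloid-like cells of the tissues differed in their β2 partners. The markers of this class are those of macrophages and dendritic cells together, and whether their mix differed between the tissues was not tested. *Itgam* was at 136 CPM in skin and 80.3 in PG (-0.76, -1.35 to -0.18), *Itgax*, a chain of dendritic cells and some macrophages, at 31.8 and 192 (2.60, 1.81 to 3.49), and *Itgb2* at 65.7 and 97.1 (0.56, -0.11 to 1.25). The log2 ratio of *Itgax* to *Itgam* was -2.09 (-3.01 to -1.27) in skin and 1.26 (0.73 to 1.81) in PG. After thinning, 4.19% of skin cells (1.93 to 7.80%) and 17.3% of PG cells (12.6 to 22.9%) held an *Itgax* UMI, at median depths of 1928 and 2014 UMIs. Of 11 members compared, 5 were higher in PG (13.3% of all genes) and 2 lower (15.0% of all genes). The other higher members were *Itgb5* (3.04, 1.83 to 4.55), *Itga6*, with 3 UMIs in skin (3.55, 1.90 to 5.89), *Itga5* (1.82, 0.36 to 3.59) and *Itgav* (1.74, 0.27 to 3.52). *Itga6* was at 74.7 in PG myeloid-like cells and at 65.3 in free RNA. From markers that the gate limits, free RNA was estimated at 14.4% of the UMIs of these cells. With free RNA subtracted in both tissues the log2 ratio of *Itga6* was 4.96. That value has no interval and rests on a skin level of 3 UMIs that the subtraction lowered further. *Itga4* (-1.58, -2.73 to -0.54) and *Itgb7* (-1.38, -2.90 to -0.01) were lower. When only cells with 1000 genes and 2000 UMIs or more were kept, *Itgav*, *Itga5* and *Itgb7* were under 2-fold, at 0.21, 0.95 and -0.96.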

How the data were processed

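Unique molecular identifier (UMI) counts per gene and barcode, deposited by the authors for each library as Cell Ranger 4 output on mm10 (the build per the submitters' processing notes), were used without normalization. They cover all listed barcodes. No table of the authors' comparisons was used.

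Barcodes with at least 500 genes, 1000 UMIs and at most 10% mitochondrial UMIs were kept. Cells were gated into 13 classes from 7 to 11 markers each. A stromal or immune class needed at least 3 of its markers and at most 1% epithelial marker UMIs. An epithelial class needed 3 markers and marker UMIs 2 times those of the next epithelial class. It also allowed at most 1 marker of each stromal or immune class (2 for the contractile and skeletal muscle classes). Other cells were left out as mixed or unnamed, which removes many doublets of unlike cells but few of related ones; no doublet caller was run. UMIs were summed by class and scaled to 1000000 UMIs of the class (CPM). Python 3.11.15, numpy 2.4.6, scipy 1.17.1, pandas 2.3.3 and matplotlib 3.10.9 were used, and the scripts were tested on simulated data.

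A gene was called from a 2-fold ratio on. A level of 0 was set to 3 counts in ratios. Free RNA was read from barcodes with 10 to 100 UMIs, and its share in a class from markers of other compartments. These are gate markers, which the gate limits in each class, so the shares can be too low. For shares of cells with a UMI, each cell was thinned to 1000 UMIs, and no cell was too shallow. Members were described from 10 UMIs and 10 CPM in a class of 50 cells. Of the 45 partner genes, those of the hemidesmosome and the 2 largest ratios in each direction were named. The members and lists were chosen with earlier results of these data known. The gate's scoring rule was set, and the comparisons of basal with follicle/duct cells were added, after class sizes were seen, since PG held too few suprabasal cells. Promoters are RefSeq's. The counts and sums leave out 1 gene of the rule, which is not reported here.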

Additional observations from a re-analysis of the deposited data

Results flagged for a closer look

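*Itga6* ordered endothelial-like and basal cells in opposite ways in the tissues. Its log2 ratio, endothelial-like over basal cells, was -0.45 (-0.88 to -0.05) in skin, with 248 CPM in 86 endothelial-like cells against 338 in basal cells. In PG the ratio was 0.77 (0.33 to 1.17), with 462 in 60 endothelial-like cells against 271. The case was picked from all 35 members over several class contrasts, by opposite signs with both intervals away from 0. It was the only one found, so its intervals were part of the choice. The difference between the tissues was not tested, since each is 1 library.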

How the results depend on the processing

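The 10 comparisons were recomputed under 12 alternatives, 1 of them (basal cells without smooth muscle genes) added after seeing the data. Of the 351 recomputed counts of members, 315 stayed within 1.5 times the reported count. The share of all genes called was not computed under the alternatives. The counts of members given for them, here and below, are thus descriptions with no background beside them. Only 87 log2 ratios were recomputed, those called at 2-fold and *Lamb1* in PG over skin basal cells, which gave 878 values. Of these, 31 moved outside the reported interval and 2 changed sign. Both sign changes were in endothelial-like cells with at least 1000 genes and 2000 UMIs, where *Lamb1* had -0.62 and *Itga5* -0.030, PG over skin. In 44 cases a called ratio kept its sign but was under 2-fold.

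The same filter left 1 member lower in skin basal than follicle/duct cells, 2 higher and 0 lower in PG than skin follicle/duct cells, 1 higher in PG endothelial-like cells and 3 higher in PG myeloid-like cells. With 1 gate marker fewer, 2 members were lower in PG follicle/duct cells, and with 1 more, 0 were. With at most 5% mitochondrial UMIs, 2 were higher and 1 lower in PG endothelial-like cells. As a mean over cells, 1 was higher in PG basal cells, *Lama4*, 3 were lower there, and 0 were lower in PG follicle/duct cells. After thinning to 1000 UMIs, 0 were higher in PG follicle/duct cells, 0 higher in PG endothelial-like cells, and 2 higher and 0 lower in PG myeloid-like cells. Centred on the median of all genes, 2 were higher and 0 lower in PG follicle/duct cells. The causes were not tested.

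A filter of 50 CPM compares fewer genes. It left 5 members higher in skin basal than suprabasal cells, 5 higher and 1 lower than in follicle/duct cells and 6 higher than in hair matrix cells. In PG it left 3 higher and 0 lower in basal than follicle/duct cells and 4 higher than in sebocyte-like cells. Between the tissues it left 0 higher and 3 lower in PG basal cells, 0 higher and 0 lower in follicle/duct cells, 2 higher and 1 lower in fibroblast-like cells, and 3 higher and 1 lower in myeloid-like cells. With a total that leaves out mitochondrial, ribosomal protein and gate marker genes, 10 members reached 10 CPM in hair matrix cells and 4 were higher and 3 lower in PG basal cells. No paired analysis was possible because each tissue is 1 library.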
